A study of Mus musculus with 12 samples.

Results

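This account covers 10 genes that newborn and maturing neurons use to build their cytoskeleton or to set their identity, out of 19268 genes measured in the mouse forebrain. They are the transcription factor genes Sox4 and Sox11, the beta tubulin genes Tubb3 and Tubb2b, the genes of the microtubule and tubulin regulators Dcx, Stmn1 and Dpysl3, the genes of the actin and membrane regulators Marcksl1 and Tmsb10, and Igfbpl1, which encodes a secreted protein. The genes were chosen by name, with no threshold, and the choice was made with results of these same libraries in view. They are treated as selected on the difference between juvenile and adult mice, and the values by age are therefore a description and carry no test for these 10 genes. All 10 were found in the table and all 10 passed the filter on low values, a mean of at least 10 normalized counts.

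The study compared forebrain transcriptomes of mice with intact and with disrupted Shank3, a scaffold protein gene of excitatory synapses, in juvenile and adult animals. All mice were male C57BL/6J mice, and the forebrain was taken without the olfactory bulb. P25-WT and P60-WT were wild-type (WT) mice at postnatal day 25 and at postnatal day 60. P25-KO and P60-KO were knock-out (KO) mice of the same ages, in which both alleles of Shank3 lacked internal exons. The sources used here name no cell type to which the deletion was restricted. Each of the 4 groups had 3 libraries. The labels do not tie libraries to litters, so p-values measure only the spread between these libraries. Values are normalized counts, that is, estimated counts per gene that the authors divided by factors for library size and transcript length.

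A young neuron first leaves the cell cycle, then migrates, extends processes and forms synapses. Sox4 and Sox11, both of the SoxC group, act in neurons that have just left the cell cycle, and Tubb3 is one of their known targets. The moving and growing cell needs labile microtubules and actin, which its tubulin isotypes, the microtubule-binding protein doublecortin (Dcx), the tubulin-sequestering protein stathmin (Stmn1), the collapsin response mediator Dpysl3, the MARCKS-like protein Marcksl1 and the actin-sequestering thymosin Tmsb10 shape. In the postnatal forebrain, Dcx and Igfbpl1 are best known from neuroblasts of the subventricular zone and the dentate gyrus.

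The sequences before the transcription start were examined because most of these genes moved together with age. A RefSeq promoter entry (assembly GRCm38.p6) was used for 6 of the 10 genes, namely Sox4, Sox11, Tubb3, Dcx, Marcksl1 and Tmsb10. The 250 bases before each RefSeq start were searched on both strands for the GC box GGGCGG, the CCAAT box, the TATA box TATAAA and the SOX cores ACAAAG and ACAATG. Printed are the gene with the largest age difference (Marcksl1, chr4:129513331-129513580, plus strand), the SoxC gene Sox11 (chr12:27342719-27342968, minus strand), the SoxC target gene Tubb3 (chr8:123411303-123411423, plus strand) and the gene that differed with age in the opposite direction (Dcx, chrX:143933312-143933469, minus strand). Each stretch ends before the first annotated start, reads 5′ to 3′ along the gene and shows matches in capitals.
Marcksl1: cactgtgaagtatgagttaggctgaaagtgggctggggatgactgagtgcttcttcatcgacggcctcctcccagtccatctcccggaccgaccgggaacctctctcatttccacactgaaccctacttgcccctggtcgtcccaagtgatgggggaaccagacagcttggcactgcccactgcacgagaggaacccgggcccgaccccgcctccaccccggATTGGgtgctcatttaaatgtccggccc
Sox11: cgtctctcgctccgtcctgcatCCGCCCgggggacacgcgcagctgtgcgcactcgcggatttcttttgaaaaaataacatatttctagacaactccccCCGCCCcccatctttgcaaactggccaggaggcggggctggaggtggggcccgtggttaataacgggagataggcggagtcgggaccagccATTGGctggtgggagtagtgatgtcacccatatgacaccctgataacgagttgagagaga
Tubb3: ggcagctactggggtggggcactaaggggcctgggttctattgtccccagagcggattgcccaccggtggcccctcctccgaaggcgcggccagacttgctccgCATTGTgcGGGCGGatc
Dcx: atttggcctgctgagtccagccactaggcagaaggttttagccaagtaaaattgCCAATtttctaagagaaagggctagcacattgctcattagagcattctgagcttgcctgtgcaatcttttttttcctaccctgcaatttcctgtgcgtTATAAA

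The Marcksl1 window held 1 CCAAT box and none of the other boxes or SOX cores, with a GC content of 60.4%. The whole Tubb3 window held 2 matches to ACAATG, 2 GC boxes and 1 CCAAT box, with a GC content of 68.0% and 21 CpG dinucleotides. One of the SOX cores of Tubb3 lies in the printed stretch, where a GC box follows it after a few bases. The other SOX core, the other GC box and the CCAAT box of Tubb3 lie past the first annotated start, inside the annotated gene. Sox11 had 2 GC boxes and 1 CCAAT box, and Sox4 had 4 CCAAT boxes, not all of them before the first annotated start. Dcx had 2 overlapping windows with GC contents of 41.6% and 44.8%, and both held the same single TATA box. The nearer Dcx window also held 1 match to ACAAAG, which lies past the first annotated start, inside the annotated gene. Of 3 Tmsb10 windows, each held a GC box and the farthest also held 1 match to ACAATG. Only that farthest window lies before the annotated Tmsb10 gene, and the others lie inside it. Over all 32841 promoters of the same length, 16.5% held ACAAAG, 10.7% ACAATG, 12.4% TATAAA, 33.9% a CCAAT box and 32.7% a GC box, and the median GC content was 52.4%. A match describes the letters and no binding was measured.

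Facts of the libraries that touch the results come first. Shank3 had 10779 ± 786 normalized counts in P25-WT and 5174 ± 481 in P25-KO, and 9796 ± 749 in P60-WT and 4914 ± 339 in P60-KO (SD, n = 3). The libraries summed to between 30568259 and 32348554 normalized counts. Genes of glutamatergic neurons, all 8 of them in the table, summed to 123369 to 126541 in P25-WT, 120477 to 127666 in P25-KO, 110934 to 114618 in P60-WT and 108808 to 112843 in P60-KO. Every P60 library lay below every P25 library in this sum. Most of it was Camk2a, with means of 75324 in P25-WT and 71736 in P60-WT, and Slc17a7, with 38319 and 30469. The part of this sum in the age differences was not tested. Genes of the midbrain and hindbrain, of which 8 of 12 were in the table, summed to between 305 and 863 per library except for P60-WT replicate 2 at 1563. The library P25-WT replicate 2 stood apart. Its ribosomal protein genes lay 0.47 above the mean of the P25 libraries on the log2 scale (81 genes), against -0.26 to 0.11 in the other 5, and 8 of the 10 genes lay above their group mean in it. Compared with the mean of the other P25-WT libraries it was 65.0% higher for Tmsb10, 34.1% higher for Stmn1 and 25.7% higher for Marcksl1, and it was the highest of all 12 libraries for these 3 genes.

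Across all genes, the age difference in log2(normalized count + 1) depended on transcript length and GC content. From the quartile of genes with the lowest GC content to the quartile with the highest, the median difference went from 0.14 to -0.15 in WT mice and from 0.14 to -0.14 in KO mice. From the shortest to the longest transcripts it went from -0.12 to 0.08 in WT mice and from -0.06 to 0.05 in KO mice. Tubb3, Marcksl1, Tmsb10 and Igfbpl1 transcripts have GC contents of 58.0%, 58.2%, 57.8% and 55.7%, in the highest quartile, and Dcx transcripts have 41.8%, in the lowest. Differences with the trend on length and GC content removed are therefore given for each gene beside the main values.

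**Figure D1:**
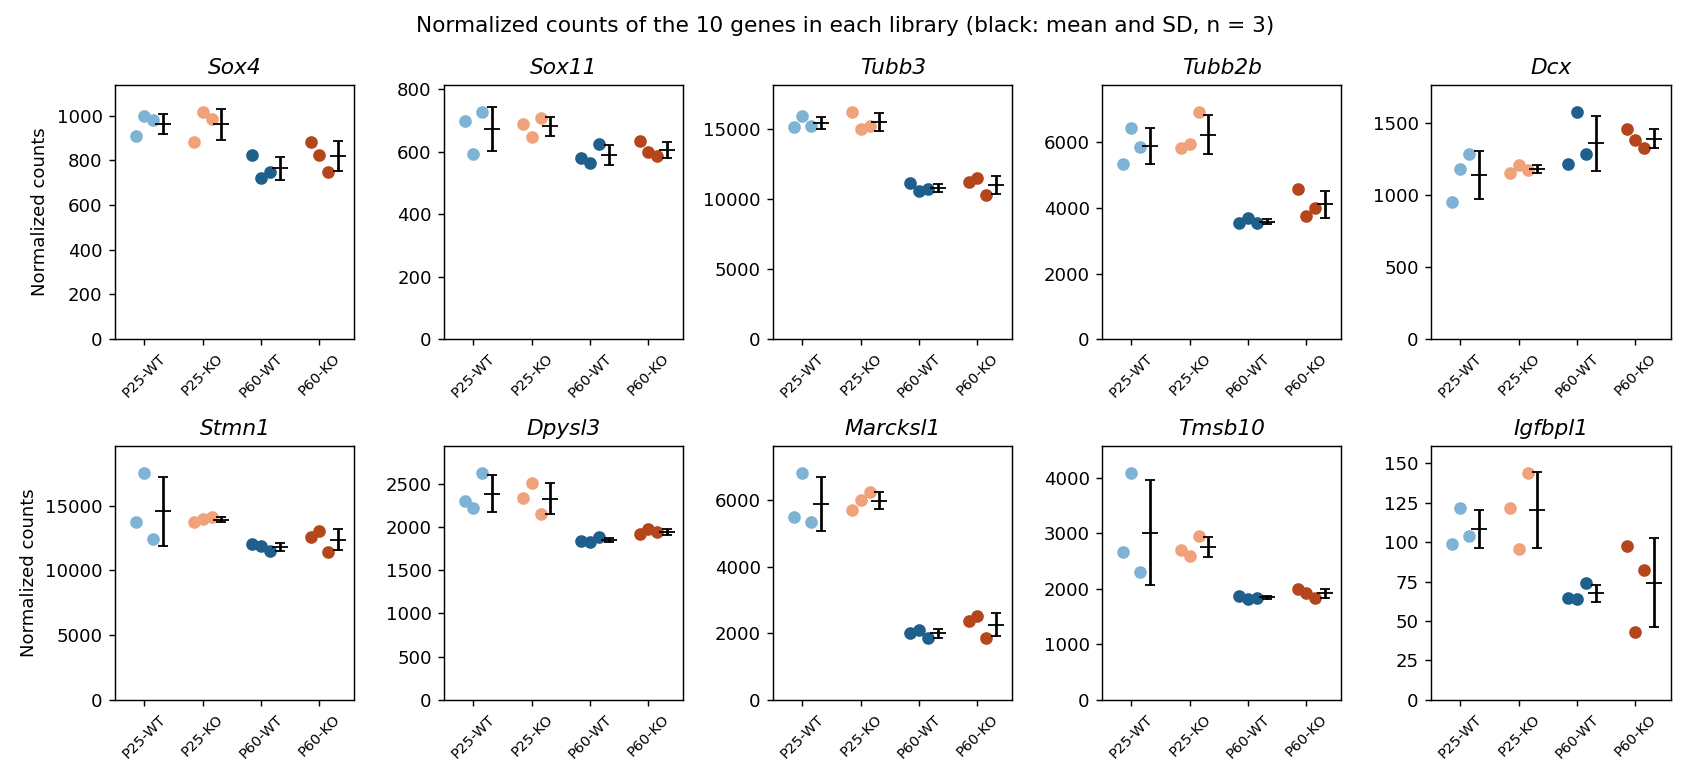
Normalized counts of the 10 genes in each library, 1 panel per gene, with groups on the x axis and a linear y axis from 0. Coloured points are libraries and black bars are means with SD (n = 3). Marcksl1 lies between 5363 and 6825 at P25 and between 1855 and 2525 at P60, while Dcx is the gene whose means are higher at P60.

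Marcksl1 had the largest age difference of the 10. It encodes a membrane-associated substrate of protein kinase C that binds actin and calmodulin. Its libraries read 5499, 6825 and 5363 normalized counts in P25-WT, 5712, 6019 and 6242 in P25-KO, 2023, 2110 and 1855 in P60-WT, and 2386, 2525 and 1865 in P60-KO. Every P60 library lay well below every P25 library, and the P60 mean was 33.9% of the P25 mean in WT mice and 37.7% in KO mice. The difference was -1.56 ± 0.10 (SE) in WT and -1.42 ± 0.10 in KO mice, in each case the 87th lowest among the 17581 and 17596 genes tested. With the trend on length and GC content removed it was -1.37 ± 0.09 and -1.27 ± 0.09, and without P25-WT replicate 2 it was -1.45 in WT mice. In bulk tissue, fewer cells of a type and less RNA per cell cannot be told apart, here and in all that follows.

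Tmsb10, whose protein binds actin monomers, read 2653, 4083 and 2295 in P25-WT, 2703, 2596 and 2951 in P25-KO, 1875, 1818 and 1832 in P60-WT and 1997, 1924 and 1824 in P60-KO. The P60 libraries all lay below the P25 libraries and varied little, with SDs of 29.6 and 87.1, while the P25-WT mean of 3011 ± 946 was spread by replicate 2. The difference was -0.66 ± 0.18 (SE) in WT and -0.52 ± 0.07 in KO mice. The WT difference missed the threshold, but passed it without P25-WT replicate 2 (-0.42), without P25-WT replicate 3 (-0.84), with a minimum mean of 50, with the replicate block and with all 12 libraries in 1 fit. It was smaller with the trend on length and GC content removed, at -0.41 in WT and -0.33 in KO mice. Of the 31-base words of Tmsb10 transcripts, 32% also occur in other genes, most of them in Gm9844, so some of its reads could have been assigned elsewhere.

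The beta tubulin genes Tubb3 and Tubb2b differed by less than Marcksl1. Tubb3, the isotype used as a neuronal marker, read 15122, 15895 and 15159 in P25-WT, 16180, 14969 and 15206 in P25-KO, 11106, 10577 and 10697 in P60-WT and 11169, 11481 and 10306 in P60-KO. The highest P60 library, at 11481, lay far below the lowest P25 library, at 14969, and the P60 mean was 70.1% of the P25 mean in WT and 71.1% in KO mice. The difference was -0.51 ± 0.06 (SE) in WT and -0.49 ± 0.06 in KO mice, and -0.31 ± 0.05 and -0.33 ± 0.05 with the trend on length and GC content removed.

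Tubb2b, an isotype of migrating and growing neurons, read 5345, 6431 and 5866 in P25-WT, 5817, 5960 and 6921 in P25-KO, 3554, 3678 and 3526 in P60-WT and 4572, 3765 and 4004 in P60-KO. Its ages did not overlap in either genotype, and at P60 the 3 KO libraries also lay above the 3 WT libraries. The difference by age was -0.71 ± 0.08 (SE) in WT and -0.60 ± 0.08 in KO mice and was the same to 2 decimals with the trend removed. Tubb2b shares 35.2% of its words with the neighbouring isotype Tubb2a, and how reads were divided between the pair is uncertain. Tubb2a itself, with an age difference of -0.59 in WT and -0.58 in KO mice, was lower at P60 too.

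To see whether the isotype makeup differed, the 7 beta tubulin genes measured were set on a scale per kb of the longest coding transcript. Their summed level was 54612 ± 1422 normalized counts per kb in P25-WT, 55757 ± 1473 in P25-KO, 38440 ± 305 in P60-WT and 40046 ± 2062 in P60-KO (SD, n = 3). Tubb3 made up between 14.7% and 15.1% of the sum in each of these groups, so its share hardly moved while its level was lower at P60. The share of Tubb2b was 4.9% ± 0.34 in P25-WT, 5.1% ± 0.52 in P25-KO, 4.3% ± 0.12 in P60-WT and 4.7% ± 0.50 in P60-KO. Tubb2a and Tubb2b together, the pair with shared sequence, went from 33.6% ± 1.30 to 31.3% ± 0.61 in WT and from 34.0% ± 0.24 to 31.7% ± 1.02 in KO mice. Tubb5 took 12.4% and 12.2% at P25 and 13.3% and 13.4% at P60.

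**Figure D2:**
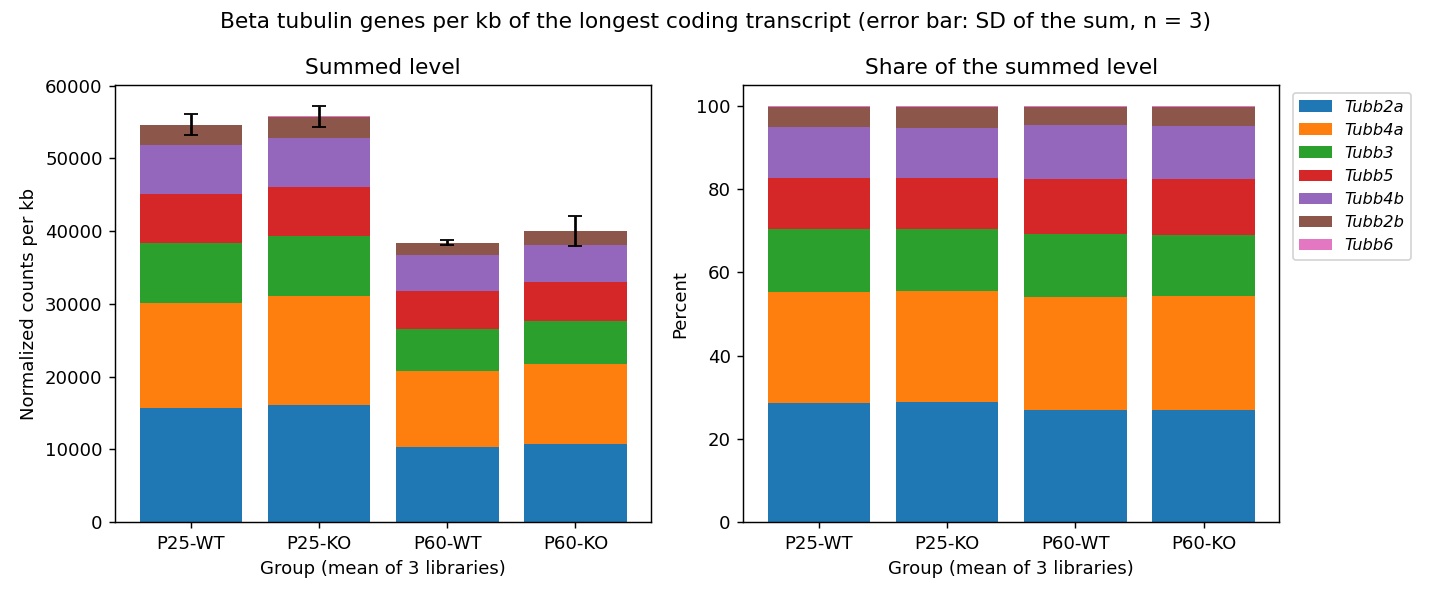
Beta tubulin genes per kb of the longest coding transcript in the 4 groups (means of 3 libraries), stacked by gene as a summed level with its SD on the left and as percent of the sum on the right. The sum is lower at P60, 38440 and 40046 against 54612 and 55757, while the Tubb3 share stays between 14.7% and 15.1%.

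Among the regulators of microtubules and tubulin, Dcx went the other way. It binds and stabilizes microtubules in migrating neurons. Its libraries read 953, 1181 and 1284 in P25-WT, 1154, 1212 and 1173 in P25-KO, 1219, 1576 and 1284 in P60-WT and 1459, 1383 and 1328 in P60-KO. The WT ages overlapped, and in KO mice all P60 libraries lay above all P25 libraries. The difference was 0.26 ± 0.14 (SE) in WT and 0.24 ± 0.06 in KO mice. In WT mice it was 0.13 without P25-WT replicate 1 and 0.15 without P60-WT replicate 2, and in KO mice the threshold was no longer passed without P25-KO replicate 1 or 3 or P60-KO replicate 1 or 2. With the trend on length and GC content removed it was 0.07 ± 0.13 and 0.06 ± 0.07, so the main value of Dcx lay close to that of other genes of its length and GC content, while the differences of the other 9 genes remained below 0.

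Stmn1, which sequesters tubulin dimers, read 13752, 17523 and 12384 in P25-WT, 13724, 13933 and 14101 in P25-KO, 12068, 11859 and 11459 in P60-WT and 12610, 12999 and 11444 in P60-KO. The ages did not overlap within a genotype, although the lowest P25-WT library lay below 2 of the P60-KO libraries. The difference was -0.29 ± 0.11 (SE) in WT and -0.17 ± 0.06 in KO mice, and -0.15 in WT mice without P25-WT replicate 2. Without P25-WT replicate 3 it was -0.40 in WT mice and passed the threshold there, as under no other alternative run. With the trend on length and GC content removed it was -0.23 in WT and -0.16 in KO mice, and the threshold was no longer passed in KO mice. Leaving out a library other than P60-KO replicate 2 also ended the KO call, with values from -0.19 to -0.12. Of its words, 22.4% also occur in other genes, most of them in Gm11223.

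Dpysl3, which encodes a collapsin response mediator of growing axons, read 2303, 2222 and 2625 in P25-WT, 2332, 2509 and 2145 in P25-KO, 1840, 1829 and 1880 in P60-WT and 1914, 1980 and 1940 in P60-KO. The P60 groups were tight, with SDs of 27 and 33.4, and all of their libraries lay below the P25 libraries. The difference was -0.36 ± 0.08 (SE) in WT and -0.26 ± 0.07 in KO mice, and -0.34 and -0.25 with the trend on length and GC content removed. It no longer passed the threshold in WT mice when any library but P25-WT replicate 2 was left out, nor in KO mice without P25-KO replicate 1 or 2 or P60-KO replicate 1 or 3, while the values stayed between -0.41 and -0.20.

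The SoxC genes Sox4 and Sox11 encode transcription factors, and neither passed the threshold by age in either genotype, although Sox4 did in WT mice with all 12 libraries in 1 fit or a minimum mean of 50. Sox4 read 911, 997 and 980 in P25-WT, 884, 1016 and 987 in P25-KO, 823, 720 and 749 in P60-WT and 881, 826 and 750 in P60-KO. The lowest P25 library, at 884, lay just above the highest P60 library, at 881, with P60 means at 79.4% of P25 in WT and 85.1% in KO mice. Its difference was -0.33 ± 0.09 (SE) in WT and -0.23 ± 0.09 in KO mice, and -0.38 and -0.24 with the trend on length and GC content removed. Sox4 overlaps a long noncoding gene on the other strand, Gm26735, over 2616 exon bases, and the library kit does not mark strand, so reads over those bases cannot be assigned to either gene by strand.

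Sox11 read 700, 592 and 727 in P25-WT, 688, 648 and 709 in P25-KO, 580, 564 and 624 in P60-WT and 634, 599 and 586 in P60-KO. The WT ages overlapped through P25-WT replicate 2, whereas the KO ages did not overlap. The difference was -0.19 ± 0.11 (SE) in WT and -0.17 ± 0.08 in KO mice. It grew with the trend on length and GC content removed, to -0.35 ± 0.08 and -0.29 ± 0.09, and then passed the threshold in both.

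Igfbpl1 was the scarcest of the 10, with 99.1, 122 and 104 normalized counts in P25-WT, 122, 95.9 and 144 in P25-KO, 64.4, 64.3 and 74 in P60-WT and 97.6, 43 and 82.3 in P60-KO. In WT mice the ages were apart, and in KO mice P60-KO replicate 1 reached into the P25 range. The difference was -0.67 ± 0.17 (SE) in WT and -0.75 ± 0.28 in KO mice, with the widest error of the 10 genes in KO mice. With the trend on length and GC content removed it was -0.58 in WT and -0.67 in KO mice, and the threshold was no longer passed in WT mice. Leaving out any 1 of the 6 WT libraries ended the WT call too, with values from -0.73 to -0.58. In KO mice the difference was -0.40 without P60-KO replicate 2 and -0.99 without P60-KO replicate 1.

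Counted together, 9 of the 10 genes were lower at P60 in each genotype. The threshold for a differentially expressed gene (DEG), an adjusted p of 0.05 over all genes tested, was passed by 5 in WT mice (Tubb3, Tubb2b, Dpysl3, Marcksl1 and Igfbpl1), all lower, where 4.99% of all genes passed lower and 3.66% higher. In KO mice it was passed by 6 lower (Tubb3, Tubb2b, Stmn1, Dpysl3, Marcksl1 and Tmsb10) and 1 higher (Dcx), where 11.3% of all genes passed lower and 9.37% higher. The genes Tubb3, Tubb2b, Dpysl3 and Marcksl1 were in both counts. All 6 P60 libraries lay below all 6 P25 libraries for 6 of the 10, against 10.8% of all genes, and none lay wholly above, against 8.79%. The median difference of the 10 was -0.44 in WT and -0.37 in KO mice, and that of all genes was -0.001 and 0.006. As the genes were chosen with these values in view, nothing is read from the counts. Without P25-WT replicate 1, or without any 1 of the P60-WT libraries, 3 of the 10 passed in WT mice. The balance of calls over all genes depended on the scaling, since scaling all libraries to 1 common total gave 681 lower and 991 higher DEGs in WT mice, against 877 and 644, and 1621 lower and 2109 higher in KO mice, against 1992 and 1649. On that scale 3 of the 10 passed lower in WT and 5 in KO mice. The calls of Tubb3, Tubb2b and Marcksl1 held in both genotypes under every alternative run.

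**Figure D3:**
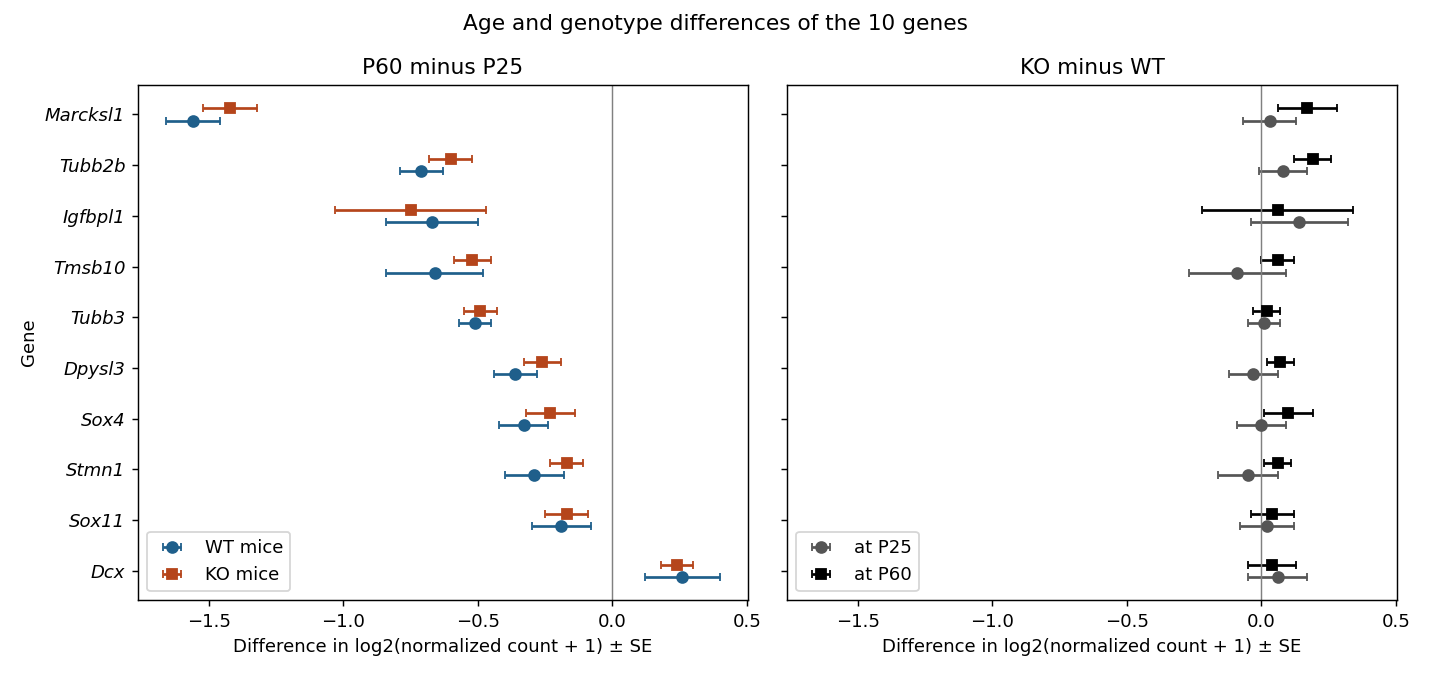
Differences in log2(normalized count + 1) with SE for the 10 genes. The left panel shows P60 minus P25 in WT and KO mice, where 9 genes lie below 0 and Dcx above, and the right panel shows KO minus WT at P25 and P60 on the same axis, where values run from -0.09 to 0.19.

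The comparison of KO with WT mice asked whether loss of Shank3 changes these genes at either age. At P25 none of the 10 passed the threshold, where 0.00571% of all 17515 genes, that is 1 gene, Shank3, did. The Shank3 call was itself lost in 2 of 6 fits that left out 1 library and under 3 of 10 other alternatives. The differences of the 10 genes ran from -0.09 ± 0.18 (SE) for Tmsb10 to 0.14 ± 0.18 for Igfbpl1, 6 above 0 and 4 below. The smallest unadjusted limma p was 0.4. Leaving out 1 library moved the Igfbpl1 difference between 0.01 (without P25-KO replicate 3) and 0.30 (without P25-KO replicate 2). At an unadjusted p under 0.05 there were 0 of the 10 and 238 of all genes. No gene of the 10 had all P25-KO libraries above all P25-WT libraries, which 2.26% of all genes had. The 95% interval was narrowest for Tubb3, with a difference of 0.01 and bounds of -0.14 and 0.15, and for Marcksl1 it was -0.19 to 0.25. Tmsb10, whose highest library was P25-WT replicate 2, had wide bounds of -0.50 and 0.33.

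At P60 the KO mean was above the WT mean for 10 of 10 genes, by 0.02 to 0.19, where 50.1% of all genes tested were higher in KO mice. Of all 17610 genes 0.00568% passed the threshold, again 1 gene, Shank3, whose call was lost under 1 of 10 other alternatives. None of the 10 genes passed it. The largest value was that of Tubb2b at 0.19 ± 0.07 (SE), with an interval of 0.04 to 0.35, an unadjusted limma p of 0.0218 and an adjusted p of 1. It was 1 of 440 genes with an unadjusted p under 0.05, and the only one of the 10. Tubb2b and Dpysl3 had all P60-KO libraries above all P60-WT libraries, as 4.16% of all genes had. Marcksl1 differed by 0.17 ± 0.11 with an interval of -0.07 to 0.41, and Sox4 by 0.10 ± 0.09 with an interval of -0.09 to 0.29.

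The direction at P60 was shared unevenly among libraries. P60-KO replicate 1 lay above its group mean for 9 of the 10 genes, and P60-KO replicate 3 for 1. Ribosomal protein genes in P60-KO replicate 1 lay 0.12 above the mean of the P60 libraries on the log2 scale. In the other P60 libraries this value ran from -0.09 to 0.04, and its part in the direction was not tested. Leaving out any 1 library left 9 or 10 of the genes higher in KO mice. Leaving out 1 library moved the Tubb2b difference between 0.11 (without P60-KO replicate 1) and 0.26 (without P60-KO replicate 2). The Marcksl1 difference moved between 0.08 (without P60-KO replicate 2) and 0.30 (without P60-KO replicate 3), and that of Sox4 between 0.04 (without P60-KO replicate 1) and 0.16 (without P60-KO replicate 3). At P25, by contrast, between 3 and 8 genes were higher in KO mice when 1 library was left out.

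Whether the age difference of these genes depends on Shank3 was tested as the interaction of genotype with age. No gene of the 10 and none of all 17594 genes tested passed an adjusted p of 0.05 (0%, limma), and 288 of all genes but 0 of the 10 had an unadjusted p under 0.05. The interaction, the KO minus the WT age difference, was above 0 for 8 of the 10 and ran from -0.08 ± 0.36 (SE) for Igfbpl1 to 0.14 ± 0.16 for Marcksl1 and 0.14 ± 0.21 for Tmsb10. The intervals were -0.20 to 0.48 for Marcksl1, -0.16 to 0.38 for Tubb2b and -0.15 to 0.19 for Tubb3.

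Levels between genes were compared per kb of the longest coding transcript. In P25-WT, Stmn1 had 13729 ± 2511 normalized counts per kb, Tubb3 8240 ± 233, Tmsb10 4363 ± 1371, Marcksl1 3673 ± 503 and Tubb2b 2695 ± 249 (SD, n = 3). Tmsb10 and Marcksl1 did not differ beyond their spread. Dpysl3 followed at 435 ± 38.9, Sox4 at 201 ± 9.51, Dcx at 126 ± 18.7, Sox11 at 81 ± 8.56 and Igfbpl1 at 37.8 ± 4.21. Thus the tubulin and its sequestering protein lay far above the transcription factors. In P60-WT the order changed at 1 place, where Marcksl1 at 1244 ± 81 fell behind Tubb2b at 1643 ± 37.1, and Sox4 at 159 ± 11 and Dcx at 150 ± 20.9 no longer differed beyond their spread. With the median coding length in place of the longest, Dcx at 316 per kb lay above Sox4 at 201 in P25-WT, so their order depends on the isoform.

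Related genes from lists written for this comparison were counted next, with results of the study known. The list of family counterparts of the 10 genes held 21 genes, of which 10 were lower DEGs in WT and 14 in KO mice, and none was a higher DEG, beside 4.99% lower and 3.66% higher over all genes in WT and 11.3% and 9.37% in KO mice. The median difference was -0.37 in WT and -0.31 in KO mice. Dpysl2, a relative of Dpysl3, went from 6200 ± 526 to 3489 ± 454 normalized counts in WT mice (SD, n = 3), a difference of -0.83 ± 0.11 (SE), with an adjusted limma p of 0.00480. Marcks, the relative of Marcksl1, fell by 0.47 in WT and by 0.46 in KO mice, less than Marcksl1. Of the other closest counterparts, Stmn2 differed by -0.37 and -0.31, Tubb4a by -0.47 and -0.45 and Tubb5 by -0.41 and -0.35 in WT and KO mice. All were DEGs in both. Igfbp2, named for its large difference within the list, differed by -0.56 and -0.49 and passed in both. Of the other Igfbp genes of the list, named after their values were seen, Igfbp4 (-0.39 and -0.32) passed in both. Igfbp5 (0.04 and -0.06) and Igfbp7 (-0.34 and -0.16) passed in neither. Tmsb4x, with -0.31 and -0.21, passed in KO mice and missed the threshold in WT mice, which does not show that the genotypes differ. Its WT value was -0.13 without P25-WT replicate 2 and -0.44 without P25-WT replicate 3, and it passed in 1 of 6 fits that left out 1 library. Sox12, the remaining SoxC gene, differed by -0.14 and -0.10 and Dclk1, a relative of Dcx, by 0.01 and -0.07, and neither passed.

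Alpha tubulin genes gave 3 lower DEGs of 5 in each genotype, where 4.99% of all genes were lower and 3.66% higher in WT mice and 11.3% and 9.37% in KO mice, led by Tuba1a at -0.80 ± 0.10 (SE) in WT and -0.72 ± 0.05 in KO mice. Among 24 growth cone and microtubule plus-end genes, 4 were lower and 1 higher in WT mice, and 8 were lower and 2 higher in KO mice. The lower ones included Actb (-0.69 and -0.75), Pfn1 (-0.66 and -0.53), Actg1 (-0.42 and -0.48) and Cfl1 (-0.46 and -0.40). The higher one in both genotypes was Ablim1, an actin-binding gene named after its values were seen, at 0.37 and 0.32. Genes of the mature neuronal cytoskeleton gave 2 lower and 1 higher DEG of 14 in WT and 3 lower and 2 higher in KO mice, with medians of 0.01 and -0.02. The microtubule motor gene Kif5a rose by 0.35 ± 0.06 (SE) in WT and 0.39 ± 0.05 in KO mice.

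Other genes of immature neurons and neuroblasts were centred near 0. Of 32 such genes, 3 were lower and 1 higher in WT mice, and 4 were lower and 2 higher in KO mice (all genes: 4.99% and 3.66% in WT, 11.3% and 9.37% in KO mice), with medians of -0.03 and 0.02 beside -0.001 and 0.006 for all genes. Nrep fell by 0.70 in WT and by 0.59 in KO mice, Cd24a fell by 0.64 and by 0.49, and Hes6 fell by 0.63 and by 0.43. Celsr3, a cadherin of axon guidance, rose by 0.59 ± 0.11 (SE) and 0.61 ± 0.07. The list of 14 other Sox genes had medians of 0.03 in both genotypes, with 2 lower DEGs in WT and 3 in KO mice, and these included Sox8 and Sox10, which mark the oligodendrocyte lineage.

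**Figure D4:**
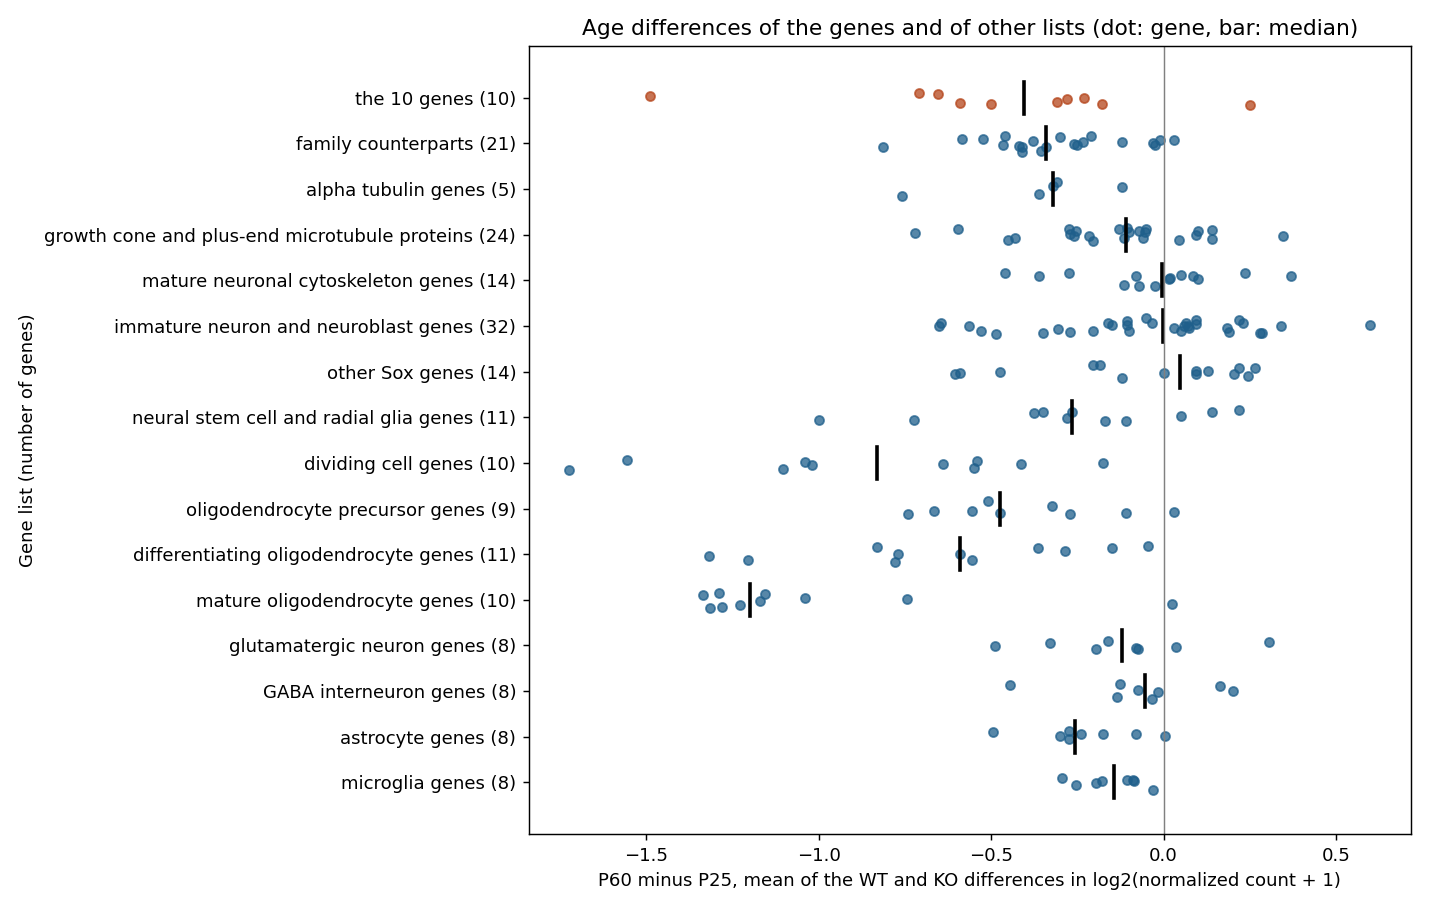
Age differences (P60 minus P25, mean of the WT and KO values of log2(normalized count + 1)) of the 10 genes in orange and of genes in other lists in blue, with 1 dot per gene and a bar at each list's median. The 10 genes and their family counterparts have medians below 0, genes of immature neurons lie around 0, and dividing cell and mature oligodendrocyte genes lie lowest.

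Markers of other cell types moved with age in the same libraries. Of 10 mature oligodendrocyte genes, 9 were lower DEGs in each genotype, beside 4.99% of all genes in WT and 11.3% in KO mice, with medians of -1.31 in WT and -1.11 in KO mice, and their summed level ran from 455910 to 537727 normalized counts in P25-WT, 412857 to 488215 in P25-KO, 203617 to 222605 in P60-WT and 208047 to 231021 in P60-KO. Oligodendrocyte precursor genes gave 5 and 6 lower DEGs of 9, and differentiating oligodendrocyte genes 6 and 8 of 11, in WT and KO mice. Their sums went from a range of 21434 to 24281 to one of 17845 to 18122 and from 21062 to 23115 to 14891 to 16506 in WT mice. Dividing cell genes gave 3 and 4 lower DEGs of 10 and summed to 549 to 741 in P25-WT and 355 to 457 in P60-WT. Neural stem cell and radial glia genes gave 2 and 4 lower DEGs of 11, with Fabp7 at -1.01 and -0.99. Astrocyte genes gave 4 lower DEGs of 8 in each genotype, microglia and endothelial genes 0 of 8. The age difference of Marcksl1, -1.56 and -1.42, was below that of every one of the 10 mature oligodendrocyte genes, of which Mog was lowest in WT mice at -1.46 and Cldn11 in KO mice at -1.29. This order turned in WT mice with the trend on length and GC content removed, at -1.37 for Marcksl1 and -1.40 for Mog, and in KO mice Cldn11 then lay just below Marcksl1 (-1.27). The part that any of these cell types had in the values of the 10 genes was not tested.

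Markers of forebrain neurons were counted in the same way, beside 4.99% lower and 3.66% higher DEGs over all genes in WT and 11.3% and 9.37% in KO mice. Lower DEGs numbered 2 of 8 glutamatergic, 0 of 8 GABA interneuron and 1 of 8 striatal genes in WT mice, and 2, 1 and 1 in KO mice, with 1 higher. Glutamatergic neuron genes had medians of -0.10 and -0.12, GABA interneuron genes -0.10 and -0.07 and striatal projection neuron genes 0.01 and -0.10, in WT and KO mice. The DEGs among the 8 glutamatergic genes included Slc17a7 (-0.33) and Emx1 (-0.63), lower in WT mice, and Slc17a7 (-0.33), lower, and Neurod6 (0.34), higher, in KO mice. The GABA interneuron genes gave 1 lower DEG, Sst at -0.35 in KO mice, and the striatal genes gave Ppp1r1b at -0.33 and -0.29. Olfactory bulb genes had medians of -0.18 in WT and 0.25 in KO mice. The 1 lower DEG of these 8 in each genotype was Ptn, which holds most of their summed level, at -0.70 and -0.55.

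Several of these calls were lost when 1 library was left out. In WT mice the age calls of Dpysl2, Tubb2a, Tuba1a, Actb, Mog and Cldn11 held whichever library was left out. Those of Stmn2, Pfn1, Cfl1, Cd24a, Hes6, Celsr3, Sox10, Slc17a7, Emx1 and Ppp1r1b were lost without P25-WT replicate 1 and without any 1 of the P60-WT libraries. The calls of Tubb4a and Nrep were lost without P25-WT replicate 1 or P60-WT replicate 1 or 3, that of Igfbp2 without P25-WT replicate 1 or P60-WT replicate 2 or 3, and those of Tubb5 and Kif5a without any 1 P60-WT library. Sox8 lost its call without P60-WT replicate 1 or 3, Ptn without replicate 2 or 3, and Marcks, Actg1 and Fabp7 without replicate 3. In KO mice Tmsb4x lost its call without replicate 3 of either age, Hes6 without P25-KO replicate 2 or 3 or P60-KO replicate 1 or 3, and Ppp1r1b without P25-KO replicate 3 or P60-KO replicate 1 or 3. Once the trend on length and GC content was removed, Igfbp2 (-0.33) and Slc17a7 (-0.19) no longer passed in WT mice, Neurod6 (0.17) no longer passed in KO mice, where Sst passed at -0.20, and Hes6 (-0.42 and -0.26) and Ppp1r1b (-0.17 and -0.16) passed in neither. The KO call of Sst was lost with all 12 libraries in 1 fit. Dpysl2 and Tuba1a each lost the WT call under 1 of 10 alternatives that left out no library.

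The mean profile of the 10 genes, each centred on the log2 scale over the 12 libraries, was 0.23 ± 0.11 in P25-WT, 0.24 ± 0.05 in P25-KO, -0.28 ± 0.01 in P60-WT and -0.19 ± 0.09 in P60-KO (SD, n = 3). The genes outside the 10 nearest to it by root mean square difference over 12 libraries were Tex264 (0.048), Gnb2 (0.052), Golga7b, Ptp4a3 and C1qtnf4 (0.057 each). By Pearson correlation, as a description over the same 12 libraries, the nearest were Gal3st1, Tmbim1, Ugt8a, Lrrc73 and Gamt, none of which is among the former 5. Their r ran from 0.987 to 0.983, and Tex264 and Gnb2 had 0.983 as well.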

How the data were processed

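RNA-seq libraries of 12 male mouse forebrains in 4 groups of 3 were analysed, with groups and replicate numbers from the sample titles. The authors quantified transcripts with Salmon 1.1.0 with a GC-bias correction and normalized the tximport estimates with DESeq2. Per the labels these were DESeq2 1.26.0 and R 3.6.2, and the annotation release is not given in the sources used here. The deposited values are signal on a count scale, not whole reads (0.33% of values were exactly whole, with no tolerance), so no count model was fitted and the depth behind a value is unknown. The number of libraries limits the precision.

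Tests used limma 3.58.1 in R 4.3.3 (lmFit, eBayes with trend) on log2(value + 1), over all genes with a mean of at least 10 in the libraries of the fit. P-values were adjusted by Benjamini-Hochberg over all genes tested, and the threshold was 0.05. Differences of low genes come out too small on this scale. Genotypes were compared within an age and ages within a genotype (6 libraries each), and the interaction used 12. Comparisons share groups. Positions, lengths and GC content came from GENCODE M21 (GRCm38), which held 19252 of 19268 identifiers, and promoter sequences from RefSeq. Words of 31 bases were used to find shared transcript sequence. The procedure was tested on simulated data. The 10 genes and the 22 gene lists were chosen with earlier results of these data known. Other genes were named by a rule: Shank3, up to 4 DEGs per list with the largest mean age difference, the closest family counterparts, and the 5 genes of nearest profile. Tubb2a, Tubb4a and Tubb5 counted as counterparts. Some items are not reported here. The alternatives were other pseudocounts, filters and scalings, eBayes without trend, all 12 libraries in 1 fit, the replicate number as a block, removal of the trend on length and GC content in each library (splines with 5 df for each), and leaving out each library in turn. Same-numbered libraries did not deviate together (correlations from -0.072 to 0.166), so numbers were not taken as pairs.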

Additional observations from a re-analysis of the deposited data

How the results depend on the processing

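The difference of each of the 10 genes between ages kept its sign under all alternatives run in both genotypes. Of 160 such values in WT mice, 18 lost and 9 gained the threshold, and of 160 in KO mice 24 lost and 2 gained it. The counts of all DEGs moved more. With eBayes without trend there were 0 DEGs between KO and WT mice at P25 and 0 at P60, 192 by age in WT and 1725 in KO mice, and 3 of the 10 genes passed lower in WT mice, as they did when all libraries were scaled to 1 common total (3). With the trend on length and GC content removed there were 0 DEGs between genotypes at P25 and 982 by age in WT mice, and all 12 libraries in 1 fit gave 3442. With the replicate number as a block there were 0 DEGs between genotypes at P25, and the age calls of Igfbpl1 in WT and of Dcx and Stmn1 in KO mice were lost, while those of Tmsb10 in WT and Igfbpl1 in KO mice were gained. The numbers are not known to pair libraries.

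Leaving out 1 library gave 0 to 8 DEGs between genotypes at P25 and 1 to 3 at P60, 122 to 2403 by age in WT and 2093 to 3230 in KO mice, 0 to 1 for the interaction, and 3 to 5 of the 10 genes lower in WT mice. The sign of small genotype differences turned. At P25 these ran from -0.04 to 0.06 for Sox4, from -0.07 to 0.08 for Sox11, from -0.03 to 0.03 for Tubb3, from -0.06 to 0.15 for Dcx, from -0.16 to 0.09 for Stmn1, from -0.09 to 0.04 for Dpysl3, from -0.03 to 0.14 for Marcksl1 and from -0.26 to 0.15 for Tmsb10. At P60 they ran from -0.01 to 0.07 for Tubb3, from -0.03 to 0.15 for Dcx and from -0.18 to 0.41 for Igfbpl1. The interaction ran from -0.04 to 0.11 for Sox11, from -0.01 to 0.06 for Tubb3, from -0.11 to 0.10 for Dcx, from -0.03 to 0.22 for Stmn1, from -0.10 to 0.32 for Tmsb10 and from -0.32 to 0.26 for Igfbpl1. By age, Dclk1 ran from -0.03 to 0.06 and the hindbrain gene En2 from -0.00 to 0.72 in WT mice, and Shank3 from -0.11 to 0.00 in KO mice. Under other settings, the P25 genotype difference of Sox4 was 0.01 with a common total and 0.00 with a median-of-ratios scaling. With the trend on length and GC content removed, the interaction of Tubb3 was -0.02, and the age difference was -0.13 for Dclk1 in WT, 0.03 for Sox12 in KO and 0.05 for Shank3 in KO mice. The causes were not tested.

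The 3 libraries per group limit the precision, as the intervals show. Depth is unknown, and P25-WT replicate 2 widened the spread of Tmsb10, Stmn1 and Marcksl1 in P25-WT.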
